A study of Homo sapiens with 3 samples.

Results

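The expression of 43 genes of the ATF4 pathway and of the unfolded protein response was followed across 3 arrays of A549, a human lung adenocarcinoma cell line. The genes were chosen by name, and every array probe whose RefSeq accession maps to one of these symbols was taken. All 43 genes were found, with 51 of the 58201 probes on the array, among 18216 protein-coding genes that could be named. They were divided into an ATF4 and amino acid arm of 29 genes and an ER stress arm of 14 genes.

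The study was about the genes that *miR-139-3p* controls in lung adenocarcinoma cells, with *miR-139-5p*, the other strand of the same precursor, examined alongside. Total RNA came from cells that received Lipofectamine RNAiMAX alone (mock) or with 10 nM of *miR-139-5p* or *miR-139-3p*. All cells grew in RPMI medium. Each condition had 1 array, no unrelated control miRNA is among the 3 arrays, and every cell came from the same line.

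The transcription factor ATF4 is made when stress kinases phosphorylate the translation factor eIF2α, and it turns on genes for the uptake and synthesis of amino acids, for charging tRNAs and for the stress response itself. Kinases that sense amino acid shortage and the ER kinase PERK (*EIF2AK3*) both feed into it. In the unfolded protein response, PERK is joined by IRE1 (*ERN1*), which splices *XBP1* mRNA, and by ATF6, and the latter branches turn on ER chaperones and the machinery that removes misfolded proteins. Some genes respond to several of these branches, so the arms are a grouping by main function.

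Each miRNA is printed in full, with its seed, bases 2 to 8, in capitals, because the conditions differ by these sequences. They are RefSeq sequences of the human mature miRNAs, in build GRCh38.p14 on the minus strand at chr11:72615066-72615088 for *miR-139-3p* and chr11:72615102-72615124 for *miR-139-5p*.
miR-139-3p: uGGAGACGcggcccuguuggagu
miR-139-5p: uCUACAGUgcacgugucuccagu
The miRNAs are 23 bases long and their seeds differ.

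The promoters of the members are shown where they hold a motif of the pathway. Promoters were RefSeq windows in build GRCh38.p14 from 250 bases before to 50 after a transcription start, and 39 of the 43 members have an entry. *NUPR1*, *EIF4EBP1*, *PSPH* and *SHMT2* do not. Where a gene has several windows, they are counted together as a single promoter, which holds a motif if any window does. The C/EBP-ATF response element (CARE), the motif ATF4 is known to bind with a C/EBP partner, was searched as TGATGNAAN on both strands. It occurred in 12 of the 25 promoters of the ATF4 arm, 48% of them, in 1 of the 14 promoters of the ER stress arm and in 570 of 15843 promoters of protein-coding genes, 3.60%. The following windows of 30 bases belong to genes that the results turn on, read along the strand of the gene, with the CARE match in capitals. Where the capitals end in CATCA, the match lies on the opposite strand.
*SLC7A1*, chr13:29595662-29595691, minus strand: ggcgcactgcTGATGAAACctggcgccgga
*SLC1A5*, chr19:46784892-46784921, minus strand: aggaagtggcTGATGCAAGctgtccagggt
*SLC3A2*, chr11:62881719-62881748, plus strand: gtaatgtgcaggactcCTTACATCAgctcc
*SLC1A4*, chr2:64989381-64989410, plus strand: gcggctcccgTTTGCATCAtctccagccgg
*ASNS*, chr7:97872457-97872486, minus strand: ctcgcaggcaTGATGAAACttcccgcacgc
*CHAC1*, chr15:40953251-40953280, plus strand: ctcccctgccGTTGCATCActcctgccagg
*AARS1*, chr16:70289675-70289704, minus strand: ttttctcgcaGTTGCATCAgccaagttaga
*ATF3*, chr1:212565206-212565235, plus strand: aaggtcaggaTGATGGAAGgctgtcatatt
The other matches of this arm were in the promoters of *CEBPG*, *CARS1*, *GARS1* and *MARS1*. In the ER stress arm, *HERPUD1* held it.

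The ER stress response element (ERSE) was searched as CCAAT, any 9 bases and CCACG, and ERSE-II as ATTGG, any base and CCACG, on both strands. ERSE was found in 3 of the 14 promoters of the ER stress arm, those of *HSPA5*, *XBP1* and *CRELD2*, and in 0 of the 25 of the ATF4 arm, against 21 of all promoters (0.133%). ERSE-II was found in *HERPUD1*, *HYOU1* and *SDF2L1*, again 3 of 14, in 0 of 25 of the ATF4 arm, and in 15 of all promoters (0.0947%). An element bound by XBP1 (UPRE, searched as TGACGTGG) was found in *HYOU1*, where it overlaps an ERSE-II, in *CARS1* and in 166 of all promoters (1.05%). Whole ERSE or ERSE-II matches are in capitals in these windows.
*HSPA5*, ERSE, chr9:125241385-125241414, minus strand: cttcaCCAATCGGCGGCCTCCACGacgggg
*XBP1*, ERSE, chr22:28800597-28800626, minus strand: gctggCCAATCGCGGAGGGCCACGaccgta
*HERPUD1*, ERSE-II, chr16:56932016-56932045, plus strand: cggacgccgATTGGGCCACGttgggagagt
*SDF2L1*, ERSE-II, chr22:21642105-21642134, plus strand: cctcggaagCGTGGACCAATcaaaaccctc
A match describes the letters of the window, and binding was not measured.

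Signals are given as multiples of the 75th percentile of their array, called scaled signals here, and are compared between arrays for the same probe only. The log2 fold change of a gene averages those of its probes that were well above background on each array compared. With 1 array per condition no test was possible, and a log2 difference past 0.5, the size at which the study called genes lower and used here in both directions, is only a size. For probes with 8 or more spots, repeat spots within an array had a median SD of 0.05 (mock, *miR-139-5p*) or 0.06 (*miR-139-3p*) on the log2 scale. Where a gene had several probes, the median SD of their log2 fold changes was 0.28 in the *miR-139-3p* comparison and 0.15 in that of *miR-139-5p*. Neither value holds the spread between cultures.

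The *miR-139-3p* array lay on slide 2 and the others on slide 1, so that slide and transfection cannot be told apart for *miR-139-3p*. Both comparisons against mock share the mock array. All 5 epithelial markers were well above background on every array, with summed scaled signals of 1086 on the mock, 710 on the *miR-139-5p* and 747 on the *miR-139-3p* array. The sums follow the keratins *KRT18* and *KRT8*, while *KRT19*, *EPCAM* and *CDH1* were higher with *miR-139-3p* than with mock. Of 6 genes known to be high in A549, 5 had a named probe, and their summed signals were 1375, 1341 and 856 in the same order. *AKR1B10*, *AKR1C1* and *ALDH3A1* were lower with *miR-139-3p* than with mock, and *ALDH1A1* and *NQO1* higher. Of 4 leukocyte markers, 3 were above background with mock and *miR-139-5p* and all 4 with *miR-139-3p*, with sums of 9.65, 12.6 and 15.7, the most from the probe for *CD79A*, at 6.38, 9.02 and 14.6. *CD14* ran the other way, at 3.12, 3.42 and 0.791. *PTPRC*, which all leukocytes carry, reached 0.110, 0.114 and 0.249. Fibroblast markers were above background in 0 of 3 genes on any array, and the sums of 3 endothelial markers stayed at or under 0.462. Each sum adds signals of different probes and so follows the brightest of them. The part of these markers in the results was not tested.

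Of the 43 members, 42 were well above background on all 3 arrays, and *ERN1* missed this level with *miR-139-5p*. With *miR-139-3p*, 21 of the 43 members were below -0.5 against mock, and 4 were above 0.5. Over all 13882 protein-coding genes with a value, 30.3% were below -0.5 and 23.2% above 0.5. The median of the members was -0.49 and that of all genes -0.12. In bulk RNA, fewer cells that express a gene and less RNA per cell cannot be told apart.

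The members below -1 all belonged to the ATF4 and amino acid arm, 13 of its 29 genes against 12.9% of all genes, and none of the 14 genes of the ER stress arm. At the threshold of -0.5 the arms stood nearer to each other, with 16 of 29 (55.2%) and 5 of 14 (35.7%), the latter near the 30.3% of all genes. The count of the ER stress arm was 8 (57.1%) without scaling or with spike-in scaling, where the share of all genes was 40.9% or 40.1%, and 3 (21.4%) when only detected probes set the percentile, where it was 24.3%. The ATF4 arm had 21, 21 and 14 genes below -0.5 in these settings, and between 11 and 14 below -1 over all 12 other settings. The median was -0.58 in the ATF4 arm and -0.40 in the ER stress arm, a difference of 0.18. That difference was 0.51 after quantile normalization, where the ATF4 arm had a median of -0.73 and the ER stress arm -0.22.

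With *miR-139-5p*, 8 of the 43 members were below -0.5 and 4 above 0.5. Of all 13340 genes with a value, 12.2% and 10.6% were so. The median was -0.06 in the ATF4 arm, -0.01 over all genes and 0.29 in the ER stress arm. Of the 14 ER stress genes, 3 were below 0. The ER stress arm thus lay 0.35 above the ATF4 arm with *miR-139-5p*, and 0.20 above it after normexp background correction. The median of the ATF4 arm turned to 0.06 when the arrays were scaled to spike-in RNA, which moved the median of all genes to 0.11. In that setting 3 genes of the ATF4 arm were below -0.5 and 3 above 0.5, and 2 and 5 of the ER stress arm. Of all genes, 8.07% were below and 16.1% above there.

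**Figure D1:**
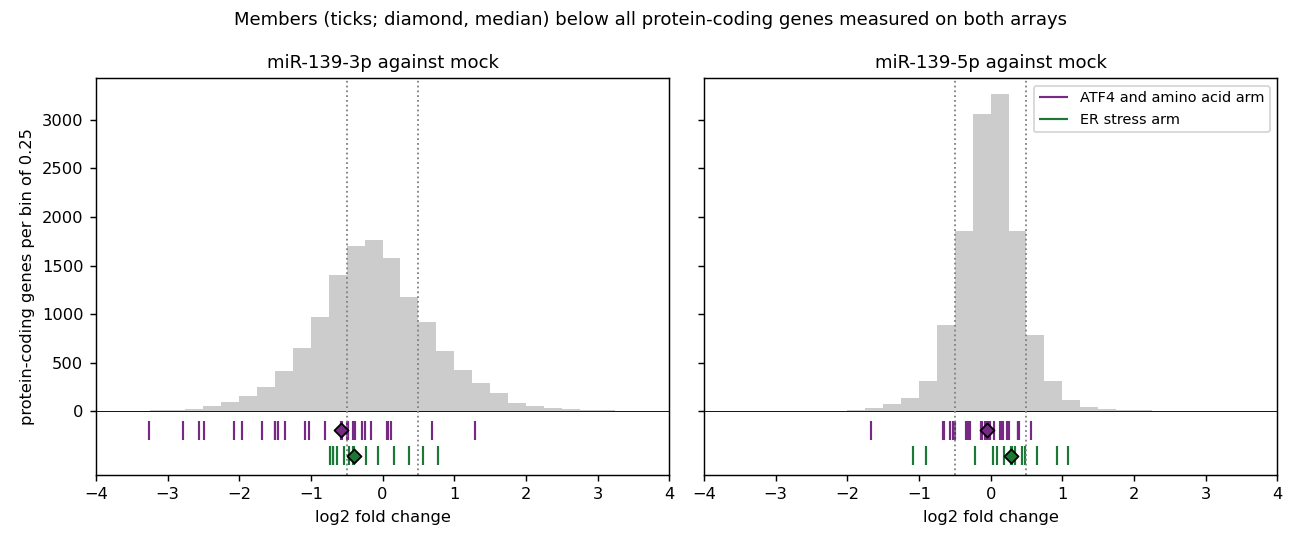
Histograms of the log2 fold change of all protein-coding genes measured on both arrays, without bounds, in bins of 0.25, for *miR-139-3p* (left) and *miR-139-5p* (right) against mock. Ticks below the axis mark the members of the ATF4 and amino acid arm (purple) and the ER stress arm (green), diamonds mark their medians, and dotted lines mark -0.5 and 0.5. The ticks of the ATF4 arm reach -3.26 on the left, while those of the ER stress arm end at -0.74.

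The largest differences with *miR-139-3p* were in amino acid transporters. Of 6 genes, 5 were below -1 (83.3%, against 12.9% of all genes), and the median was -2.29. *SLC7A5*, the light chain of the exchanger that brings in leucine and other large neutral amino acids, had a scaled signal of 71.4 with mock, 71.0 after *miR-139-5p* and 7.43 after *miR-139-3p*. *SLC3A2*, the heavy chain that carries it to the membrane, had 22.9, 15.4 and 5.41. Both were lowest on the *miR-139-3p* array, with log2 fold changes of -3.26 and -2.08, and *SLC3A2* was also below mock with *miR-139-5p*, at -0.57.

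*SLC7A1*, a carrier of arginine and lysine, had scaled signals of 3.16 with mock, 3.76 after *miR-139-5p* and 0.457 after *miR-139-3p*. *SLC1A5*, which exchanges glutamine, had 6.93, 6.66 and 1.23. *SLC1A4*, a carrier of alanine, serine and other small neutral amino acids, had 0.196, 0.192 and 0.0713. In these genes the *miR-139-5p* array stood near the mock array, with log2 fold changes of 0.25, -0.06 and -0.03, while those of the *miR-139-3p* array were -2.79, -2.49 and -1.46. With normexp background correction, the value of the dim probe of *SLC1A4* was -0.10 and that of *SLC7A1* was -1.74.

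*SLC38A2*, a sodium-coupled carrier of small neutral amino acids that cells raise when amino acids are short, ran the other way. Its scaled signal over its 2 probes was 9.75 with mock, 14.4 after *miR-139-5p* and 15.8 after *miR-139-3p*. The gene was 1.62-fold higher than mock with *miR-139-3p* (log2 0.69) and 1.48-fold higher with *miR-139-5p* (log2 0.56), and its probes gave 0.69 and 0.70 for *miR-139-3p* but 0.44 and 0.69 for *miR-139-5p*. The value with *miR-139-5p* was within the threshold in 3 of 12 other settings, and that with *miR-139-3p* in 1.

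Of the 6 genes of amino acid synthesis, 4 were below -1 with *miR-139-3p* (66.7%, against 12.9% of all genes), and the median was -1.05. The count was 2 (33.3%) with quantile normalization, the deposited values or the percentile over detected probes. Of all genes, 14.6%, 14.5% and 10.03% were below -1 in these settings, in that order. There *ASNS* and *MTHFD2* came within 1 of mock, at -0.88 and -0.84 in the deposited values. *PHGDH*, which takes the first step of serine synthesis, had a scaled signal of 8.77 with mock, 7.97 after *miR-139-5p* and 3.10 after *miR-139-3p*, a log2 fold change of -1.50. *SHMT2*, which makes glycine from serine in mitochondria, had 32.4, 25.5 and 12.6, a log2 fold change of -1.36. *ASNS*, asparagine synthetase, had 43.7, 49.0 and 20.7, a log2 fold change of -1.08. These enzymes were at 35.3%, 38.9% and 47.3% of mock on the *miR-139-3p* array.

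*MTHFD2*, a mitochondrial enzyme of folate one-carbon metabolism, was measured by 10 spots on each array. The mean log2 scaled signal was 3.65 ± 0.09 (SD between 10 spots) with mock, 3.81 ± 0.05 after *miR-139-5p* and 2.63 ± 0.06 after *miR-139-3p*. The spots of the *miR-139-3p* array, from 2.53 to 2.71, did not overlap those of the mock array, from 3.46 to 3.79, and this spread is that within an array only. The log2 fold change was -1.03.

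The other enzymes of the serine pathway differed from *PHGDH*. *PSPH*, which releases serine in the last step, had scaled signals of 8.85 with mock, 8.46 after *miR-139-5p* and 9.31 after *miR-139-3p*. *PSAT1*, which acts between both, had 40.2, 25.4 and 33.1, and so was lowest with *miR-139-5p*, at -0.66, and at -0.28 with *miR-139-3p*.

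All 5 cytosolic tRNA synthetases were below 0 in both comparisons, 3 of them below -0.5 in each (60%, where 30.3% and 12.2% of all genes were). *AARS1*, which charges alanine tRNA, had scaled signals of 6.18 with mock, 3.92 after *miR-139-5p* and 1.05 after *miR-139-3p*, log2 fold changes of -0.66 and -2.56. The other synthetases lay between -0.81 and -0.39 with *miR-139-3p* and between -0.53 and -0.08 with *miR-139-5p*. *CARS1*, which charges cysteine tRNA, was at -0.81 and -0.50, and normexp background correction moved these to -0.46 and -0.25.

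*GARS1*, for glycine tRNA, was at -0.57 after *miR-139-3p* and -0.08 after *miR-139-5p*, and *WARS1*, for tryptophan tRNA, at -0.39 and -0.13. *MARS1*, for methionine tRNA, was at -0.49 and -0.53, with its 2 probes at -0.62 and -0.36 for *miR-139-3p*. Other settings brought *GARS1* within the threshold with *miR-139-3p* in 3 of 12, and *CARS1* and *MARS1* with *miR-139-5p* in 4 of 11 and 3 of 12. *AARS1* was the synthetase of the list furthest below mock with *miR-139-3p*.

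**Figure D2:**
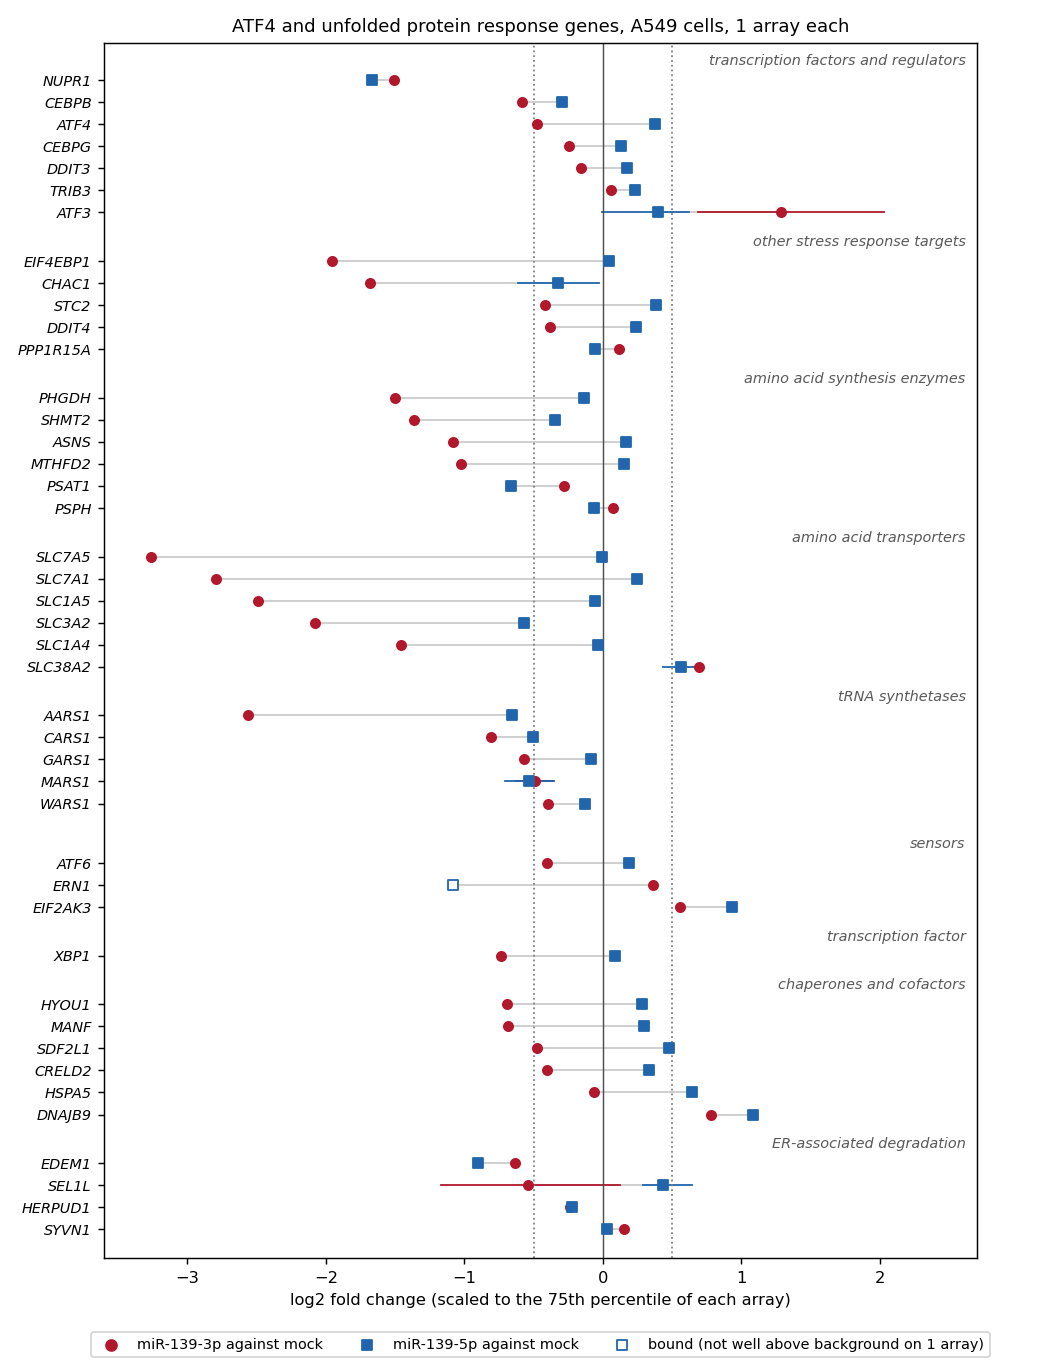
Log2 fold change of each of the 43 members against mock, for *miR-139-3p* (red circles) and *miR-139-5p* (blue squares), ordered by role. Horizontal coloured lines span the probes of a gene where it has several, the open square is a bound, and dotted lines mark -0.5 and 0.5. Red circles lie to the left of -1 for 5 transporters, 4 synthesis enzymes, *AARS1*, *EIF4EBP1*, *CHAC1* and *NUPR1*.

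Among the transcription factors and regulators of this arm, 2 of 7 were below -0.5 (28.6%, near the 30.3% of all genes) and 1 above 0.5 with *miR-139-3p*. *ATF4* itself had a scaled signal of 162 with mock, 211 after *miR-139-5p* and 117 after *miR-139-3p*. Its log2 fold change was -0.48 with *miR-139-3p*, just within the threshold, and 0.38 with *miR-139-5p*. The value with *miR-139-3p* ran from -0.68 to -0.34 over 12 other settings and passed -0.5 in 5 of them, which were quantile normalization, the deposited values, no scaling, spike-in scaling and normexp. The *ATF4* mRNA was thus at 71.9% of mock with *miR-139-3p*, and ATF4 protein, which depends on translation, was not measured here.

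*ATF3*, a stress-induced repressor downstream of ATF4, was the only member above 1 with *miR-139-3p*. Its scaled signal was 0.456 with mock, 0.600 after *miR-139-5p* and 1.11 after *miR-139-3p*, over 3 of its 4 probes. It was 2.44-fold higher than mock with *miR-139-3p*, with probes from 0.69 to 2.03 on the log2 scale and 0.81 after normexp correction. With *miR-139-5p* it was at 0.40, with probes from -0.01 to 0.62.

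*DDIT3*, which encodes the factor CHOP, had scaled signals of 0.782 with mock, 0.884 after *miR-139-5p* and 0.701 after *miR-139-3p*. *CEBPG*, a dimer partner of ATF4, had 12.5, 13.7 and 10.6. *TRIB3*, a pseudokinase that CHOP and ATF4 induce, had 44.3, 51.9 and 46.1. None of these passed 0.5 in either comparison, with log2 fold changes from -0.24 to 0.06 for *miR-139-3p* and from 0.13 to 0.23 for *miR-139-5p*.

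*CEBPB*, which encodes another C/EBP partner and is induced by amino acid shortage, was measured by 10 spots on each array. Its mean log2 scaled signal was 4.97 ± 0.02 (SD between 10 spots) with mock, 4.68 ± 0.04 (9 spots) after *miR-139-5p* and 4.39 ± 0.03 (9 spots) after *miR-139-3p*. The spots of the arrays did not overlap, but their spread is that within an array only. The log2 fold changes were -0.58 and -0.29, the former within the threshold in 3 of 12 other settings. *NUPR1*, a small stress-induced nuclear protein, had scaled signals of 10.4 with mock, 3.28 after *miR-139-5p* and 3.67 after *miR-139-3p*. It was low on both miRNA arrays, at -1.67 with *miR-139-5p*, the lowest value of any member in that comparison, and at -1.50 with *miR-139-3p*.

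Of the other targets, *EIF4EBP1*, which restrains cap-dependent translation, had scaled signals of 61.0 with mock, 63.0 after *miR-139-5p* and 15.7 after *miR-139-3p*. *CHAC1*, which breaks down glutathione, had 3.46, 3.38 and 1.08 on its brighter probe. They were at 25.8% and 31.2% of mock on the *miR-139-3p* array, with log2 fold changes of -1.96 and -1.68, and *EIF4EBP1* was at 0.05 with *miR-139-5p*. *CHAC1* was at -0.32 there as the mean of its 2 probes, of which the brighter gave -0.03 and the dimmer -0.61. The dimmer probe was too dim to be well above background with *miR-139-3p*.

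*DDIT4*, an inhibitor of mTORC1 that many stresses induce, had a mean log2 scaled signal of 4.97 ± 0.08 (SD between 10 spots) with mock, 5.22 ± 0.03 after *miR-139-5p* and 4.59 ± 0.05 after *miR-139-3p*. *STC2*, a secreted glycoprotein induced by ER stress, had scaled signals of 0.315, 0.412 and 0.236 in that order. *PPP1R15A*, which guides the phosphatase that reverses eIF2α phosphorylation, had 0.909, 0.873 and 0.988. *DDIT4* and *STC2* were both higher than mock with *miR-139-5p*, at 0.24 and 0.39, and lower with *miR-139-3p*, at -0.38 and -0.42, all within the threshold, while *PPP1R15A* was at 0.12 after *miR-139-3p* and -0.06 after *miR-139-5p*. The value of *STC2* with *miR-139-3p* ran from -0.73 after quantile normalization to -0.14 after normexp correction, and passed -0.5 in 4 of 12 other settings. The spots of *DDIT4* did not overlap between the arrays either, though its values were within the threshold.

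**Figure D3:**
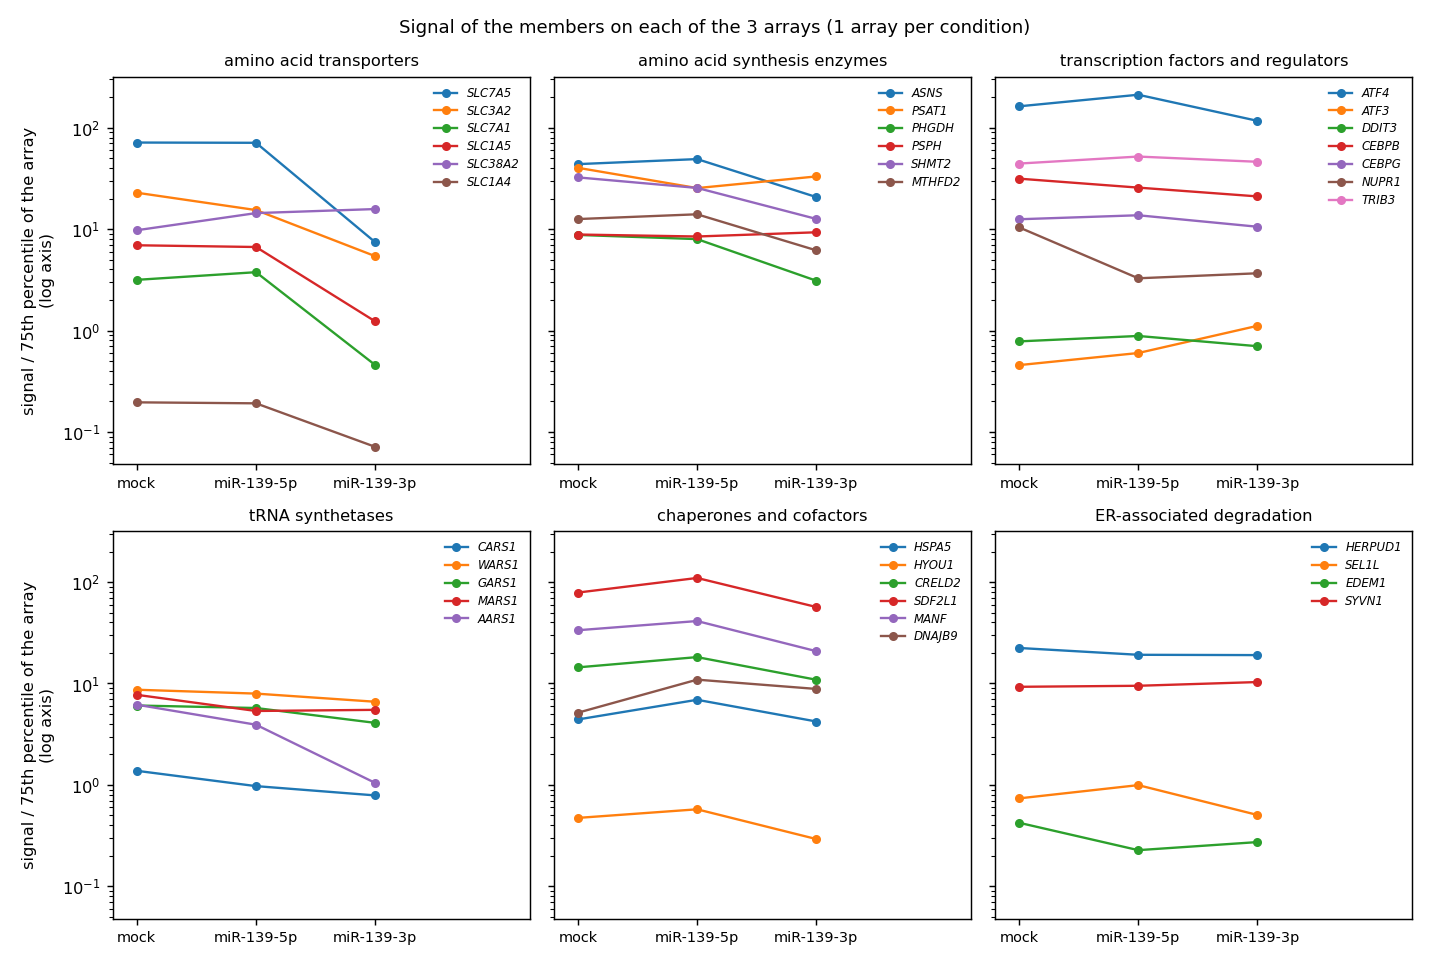
Scaled signal (signal over the 75th percentile of the array, log axis) of the members of 6 role groups on each array (from left, mock, *miR-139-5p*, *miR-139-3p*), with lines joining the points of one gene. The heights of different genes come from different probes and are not comparable. The lines of *SLC7A5*, *SLC7A1*, *SLC1A5*, *SLC3A2* and *AARS1* drop steeply to *miR-139-3p*, to between 10.4% and 23.7% of mock, and all 6 lines of the chaperone panel are highest at *miR-139-5p*.

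The sensors of the ER stress arm did not move together. *EIF2AK3*, the kinase PERK, had scaled signals of 0.259 with mock, 0.495 after *miR-139-5p* and 0.382 after *miR-139-3p*. *ERN1*, the kinase and nuclease IRE1, had 0.122, 0.0525 and 0.157. *ATF6*, the membrane-bound factor released by cleavage, had 5.19, 5.93 and 3.93. *EIF2AK3* was above mock with both miRNAs, at 0.93 after *miR-139-5p* and 0.56 after *miR-139-3p*, and the latter was within the threshold in the same 5 settings in which *ATF4* passed it, as low as 0.28. *ERN1* had a bound of 2.12-fold lower than mock with *miR-139-5p*, where it was not well above background, and was at 0.36 with *miR-139-3p*. *ATF6* was at -0.40 after *miR-139-3p* and 0.19 after *miR-139-5p*. With normexp correction *ERN1* was at -0.12 and *EIF2AK3* at 0.45 with *miR-139-5p*, and with quantile normalization *ERN1* was at -0.06 with *miR-139-3p*.

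*XBP1*, whose spliced mRNA encodes the main factor of the IRE1 branch, had a mean log2 scaled signal of 5.35 ± 0.03 (SD between 9 spots) with mock, 5.44 ± 0.04 (10 spots) after *miR-139-5p* and 4.61 ± 0.04 (10 spots) after *miR-139-3p*. The spots with *miR-139-3p*, from 4.54 to 4.68, lay below those with mock, from 5.29 to 5.38, a spread within an array only. The log2 fold change was -0.74, and splicing was not measured here.

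The chaperones and their cofactors were the group that stood highest with *miR-139-5p*. All 6 were above mock there, with a median of 0.41, where that of all genes was -0.01. Of the 6, 2 passed 0.5 (33.3%, against 10.6% of all genes). *HSPA5*, the main chaperone of the ER lumen and the usual marker of the response, had scaled signals of 4.42 with mock, 6.91 after *miR-139-5p* and 4.22 after *miR-139-3p*. *DNAJB9*, a cochaperone that acts on it and is induced through XBP1, had 5.15, 10.9 and 8.83. *HSPA5* was thus 1.56-fold higher than mock with *miR-139-5p* (log2 0.64) and at -0.07 with *miR-139-3p*, while *DNAJB9* was above mock with both, 2.12-fold with *miR-139-5p* (log2 1.08) and 1.72-fold with *miR-139-3p* (log2 0.78).

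*HYOU1*, a large chaperone of the ER lumen, had scaled signals of 0.473 with mock, 0.575 after *miR-139-5p* and 0.292 after *miR-139-3p*. *MANF*, a secreted ER protein that binds *HSPA5* product, had 33.5, 41.3 and 20.8. *SDF2L1*, which works with ER cochaperones, had 78.8, 109.7 and 56.7. Each was highest with *miR-139-5p*, at 0.28, 0.30 and 0.48, and lowest with *miR-139-3p*, at -0.69, -0.69 and -0.47. *CRELD2*, an ER protein induced by stress, was at 0.34 and -0.41. The value of *HYOU1* with *miR-139-3p* was -0.21 after normexp correction.

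Genes of ER-associated degradation showed no common direction. *EDEM1*, a lectin-like protein that marks glycoproteins for disposal, had scaled signals of 0.423 with mock, 0.227 after *miR-139-5p* and 0.273 after *miR-139-3p*. *SEL1L*, the partner of the ligase SYVN1, had a mean of 0.736, 0.995 and 0.505 over 3 probes. *EDEM1* was below mock with both miRNAs, at -0.90 and -0.63, which became -0.32 and -0.18 after normexp correction. The probes of *SEL1L* differed in sign with *miR-139-3p*, at -1.17, -0.58 and 0.12, and their mean was -0.54, but -0.08 after normexp correction. With *miR-139-5p* all 3 were above 0, with a mean of 0.43.

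*HERPUD1*, a membrane protein of the degradation complex and a frequent target of ATF4 and ATF6, had scaled signals of 22.4 with mock, 19.2 after *miR-139-5p* and 19.0 after *miR-139-3p*. *SYVN1*, the ubiquitin ligase itself, had 9.27, 9.49 and 10.3. Both passed the threshold in neither comparison, *HERPUD1* at -0.23 and -0.22 and *SYVN1* at 0.16 and 0.03, with *miR-139-3p* given first.

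Comparing the miRNA arrays directly leaves out the mock array. With *miR-139-3p* against *miR-139-5p*, 23 of the 43 members were below -0.5 and 2 above 0.5, and of all 13818 genes with a value 30.4% and 23.3% were so. The ATF4 arm had 15 of 29 genes below -0.5 and a median of -0.62. The ER stress arm had 8 of 14 and a median of -0.65, so that the medians differed by -0.03. The median of all genes was -0.11.

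The members of the arms differed in how far single genes went. In the ATF4 arm 12 genes were below -1 in this comparison, against 13.2% of all genes, led by *SLC7A5* at -3.26, *SLC7A1* at -3.04 and *SLC1A5* at -2.44. In the ER stress arm 0 were, and the lowest were *MANF* at -0.99, *SEL1L* at -0.98 and *HYOU1* at -0.97. All 6 chaperones were below 0, with a median of -0.85. Outside the members, the further genes described below did not show this difference between arms. Of these, 5 of 22 ER stress genes and 5 of 29 ATF4 and amino acid genes with a value were below -1. *ATF4* was at -0.85. The members above 0.5 were *ATF3*, at 0.89, and *ERN1*, with a bound of 2.72-fold higher. This bound rests on 1 dim probe that was not well above background with *miR-139-5p*. With normexp correction, 0 genes of the ER stress arm were above 0.5.

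Set side by side, 16 members were below -0.5 with *miR-139-3p* and within 0.5 of mock with *miR-139-5p*, 12 of the ATF4 arm and 4 of the ER stress arm. The latter were *XBP1*, *HYOU1*, *MANF* and *SEL1L*. Another 5 were below -0.5 with both miRNAs, namely *NUPR1*, *SLC3A2*, *CARS1*, *AARS1* and *EDEM1*, and 3 were above 0.5 with both, *SLC38A2*, *EIF2AK3* and *DNAJB9*, of which the first and second each came within the threshold with either miRNA in some other setting. In 14 members neither comparison passed the threshold, among them *DDIT3* and *TRIB3*, and *ATF4* in the setting reported. None passed it in opposite directions. Of 13279 genes with a value in both comparisons, 24.1% had the pattern of the 16 members (37.2% of 43), 5.40% were below in both and 3.64% above in both, 38.4% passed neither threshold, and 2.19% and 2.15% had opposite directions. As the mock array serves both comparisons, its own error enters both values of a gene. The genes nearest to the threshold with *miR-139-3p* were *MARS1* at -0.49, *ATF4* at -0.48 and *SDF2L1* at -0.47 within it, and *SEL1L* at -0.54, *EIF2AK3* at 0.56 and *GARS1* at -0.57 past it. With *miR-139-5p* they were *SDF2L1* at 0.48 within it and *CARS1* at -0.50 just past it.

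The ATF4 arm was also divided by the CARE matches shown above. The 12 genes with a match had a median of -1.27 with *miR-139-3p*, and 9 were below -0.5 (75%, against 30.3% of all genes) and 1, *ATF3*, was above 0.5. The 13 genes with an entry and no match had a median of -0.39, and 4 were below (30.8%) and 1 above. The 4 genes without an entry stood in neither group, with *EIF4EBP1* at -1.96, *NUPR1* at -1.50, *SHMT2* at -1.36 and *PSPH* at 0.07. Counted with the genes that had a match they would bring that median to -1.41, and counted with the others to -0.42. *SLC7A5*, the lowest member of all, was among those without a match in this window. With *miR-139-5p* the medians were -0.07 and 0.16, and 4 of 12 (33.3%) and 1 of 13 (7.69%) were below -0.5, against 12.2% of all genes. In the ER stress arm, the 6 genes with an ERSE or ERSE-II had a median of -0.44 after *miR-139-3p* and 0.31 after *miR-139-5p*, against -0.12 and 0.25 for the other 8. These are descriptions of small groups, with no test.

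Further genes of the same pathways were counted in lists that do not hold the members. Of 30 further ATF4 and amino acid genes, 29 had a value. With *miR-139-3p*, 14 were below -0.5 (48.3%, against 30.3% of all genes) and 2 above 0.5, with a median of -0.50. The lowest was *SLC6A9*, a glycine transporter, at -1.95, and those above were *SESN2*, which signals leucine shortage to mTORC1, at 1.24, and *GDF15*, a stress-induced hormone, at 1.21. With *miR-139-5p*, 5 were below (17.2%, against 12.2% of all genes) and 2 above, with a median of -0.08, and *GDF15* was the lowest at -1.65. *GDF15* thus differed between the miRNA arrays by 2.86.

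Of 22 further ER stress genes, 8 were below -0.5 with *miR-139-3p* and 0 above 0.5, with a median of -0.41. These are 36.4% of the list, near the 30.3% of all genes. Below -1 were 3 of the 22, and 7 of the 29 further ATF4 and amino acid genes, against 12.9% of all genes. With *miR-139-5p*, 0 of the 22 were below -0.5 and 5 above 0.5 (22.7%, against 10.6% of all genes), with a median of 0.21. *SEC24D*, a subunit of the coat of vesicles leaving the ER, was both the lowest with *miR-139-3p*, at -1.34, and the highest with *miR-139-5p*, at 1.31. The ER chaperone calnexin, *CANX*, was at -1.05 and 0.21, and the disulfide isomerase *PDIA4* at -0.71 and 0.55. Others did not have this pattern, and 7 of the 22 were below 0 with *miR-139-5p*. *DERL3* was the highest with *miR-139-3p*, at 0.45, and was at -0.44 with *miR-139-5p*. *DNAJC10* was the lowest with *miR-139-5p*, at -0.46, and was at -0.38 with *miR-139-3p*. With *miR-139-3p* given first, *PDIA3* was at -0.44 and -0.35, and *HSP90B1* at 0.13 and 0.13. Both further lists, too, were drawn up with results of these arrays known.

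**Figure D4:**
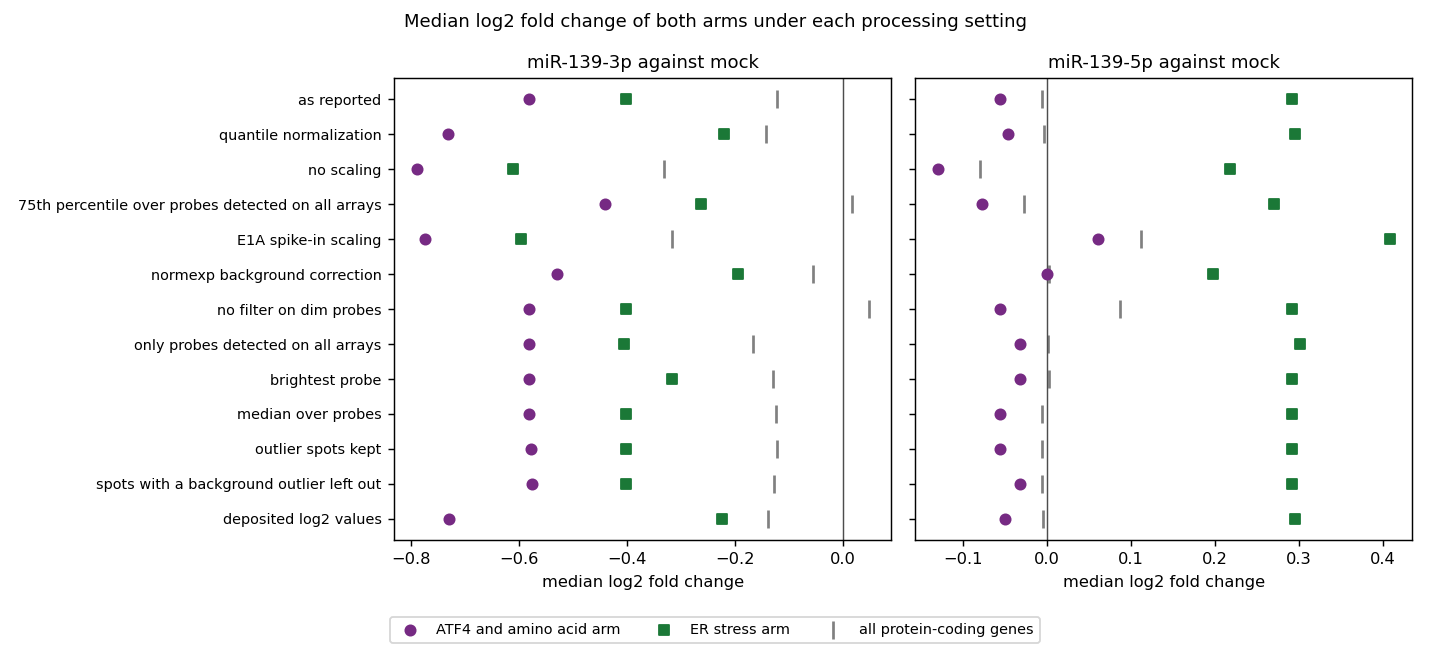
Median log2 fold change against mock of the ATF4 and amino acid arm (purple circles), the ER stress arm (green squares) and all protein-coding genes (grey bars) under each way of processing the arrays. The horizontal axes of the panels differ. In every setting shown, both arms lie below all genes with *miR-139-3p*, the ATF4 arm lowest, and the ER stress arm lies above all genes with *miR-139-5p*.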

How the data were processed

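The members, their arms and all gene lists were chosen with earlier results of these data known. The deposited spot intensity came from Feature Extraction 12.1.1.1, background-subtracted and not normalized between arrays. A table of log2 values was deposited too. By comparison with the spots, these deposited log2 values (median 2.21 on each array) were quantile-normalized log2 signals; they served as an alternative.

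From the processed intensity, the log2 of each array's 75th percentile (93.6 for mock, 88.9 for *miR-139-5p*, 81.0 for *miR-139-3p*) was subtracted. Spots marked as feature outliers (59, 67 and 69 of 60901) were left out and spots of a probe averaged. A probe was well above background where at least 50% of its spots were; 49.9%, 48.1% and 53.1% of spots were, and 0 were saturated. A gene without a probe above background on both arrays was given a bound instead, taken from the brightest of its probes detected on either array; the dim side took the array's lowest detected signal or the probe's own, whichever was higher. Bounds entered counts and medians at their value: 912 of 13882 genes for *miR-139-3p*, 529 of 13340 for *miR-139-5p* and 1079 of 13818 between the miRNAs. Genes were named through RefSeq accessions (24751 of 25277 NM accessions matched), and promoters and miRNAs come from RefSeq tables of GRCh38.p14.

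Values on each array were printed for transcription factors, sensors and, per role group, the members with the highest and lowest *miR-139-3p* and the largest *miR-139-5p* difference; further members and genes were named after their values were seen. The dose is that in the study's methods. Each condition had 1 array, so no test was made; the number of arrays limits the precision. In all, 13 alternatives were tried, 1 of them added after the data were seen. Steps were tested on simulated data. Python 3.11.15 with numpy 2.4.6, pandas 2.3.3 and matplotlib 3.10.9, and R 4.3.3 with limma 3.58.1 (normexp, offset 50) were used.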

Additional observations from a re-analysis of the deposited data

How the results depend on the processing

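No paired analysis was possible because each condition had 1 array. Of 13 alternatives, the one that also left out spots with an outlying local background was chosen after seeing the data. Where a value moved, the cause was not tested. With *miR-139-3p* the ER stress arm had 8 genes below -0.5 and 1 above 0.5 without scaling and with spike-in scaling, 3 below with the percentile over probes detected on all arrays, 1 above with quantile normalization, normexp or the deposited values, and 0 past 1 either way. The ATF4 arm had 1 above without scaling and 1 above 1. The arms' medians differed by 0.51 with quantile-normalized values, the authors' deposited ones included. With *miR-139-5p* the ATF4 arm had 3 below and 3 above with spike-in scaling, 0 above without scaling or without outlying backgrounds, 2 above with the median over probes, and 1 below and 0 above at a threshold of 1. The ER stress arm had 5 above with spike-in scaling, 0 below with normexp, 1 below with probes detected on all arrays, and 1 either way past 1. The arms' medians differed by 0.20 with normexp. Between the miRNAs, medians were -0.94 and -0.96 with spike-in scaling, and -0.39 in the ER stress arm with normexp. The ATF4 arm had 2 above with quantile-normalized or deposited values and the percentile over detected probes, and 0 above 1. The ER stress arm had 0 above with normexp or probes detected on all arrays, and 0 below -1. For single members, 990 values moved by less than the spread and 34 moved further. The sign changed in 29 values, of which 1 belonged to a member past 0.5, *SEL1L* with *miR-139-3p*, at 0.12 with its brightest probe; the others were reported at 0.36 or nearer to 0, such as *ERN1* with *miR-139-3p* (0.36), at -0.06 with quantile normalization or the deposited values.

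Scaling shifted all genes: the median with *miR-139-3p* was -0.33 without scaling, -0.32 with spike-ins and 0.02 with the percentile over detected probes. Of genes past 0.5, 43.4% were higher with *miR-139-3p*, against 29.1%, 29.9% and 53.6% under these and 29.4% with normexp. With *miR-139-5p* it was 46.5%, against 33.8% without scaling and 66.6% with spike-ins, and between the miRNAs 43.3%, against 24.7% with spike-ins, 55.4% with the percentile over detected probes and 31.3% with normexp. Of the members past 0.5, 10 fell within it under at least 1 of 12 settings with *miR-139-3p* (*CARS1*, *CEBPB*, *EDEM1*, *EIF2AK3*, *GARS1*, *HYOU1*, *MANF*, *SEL1L*, *SLC1A4* and *SLC38A2*) and 7 with *miR-139-5p*, and 9 and 5 members within it passed it.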

Other observations

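Related gene families were counted as a description, in lists written after the data were seen. Of 41 named genes of amino acid transporter families, 27 had a value with *miR-139-3p*. Without the members, 7 of 21 were below -0.5 (33.3%) and 5 above 0.5 (23.8%), shares near the 30.3% and 23.2% of all genes, with a median of -0.33. Of the 21, 4 were below -1 and 3 above 1, where 12.9% and 10.4% of all genes were. *SLC7A10*, the highest at 2.03, was a bound. *SLC7A7*, which pairs with the heavy chain *SLC3A2* to export arginine and lysine, was at -3.18 after *miR-139-3p* and 0.09 after *miR-139-5p*. *SLC3A1*, the heavy chain of the cystine carrier of kidney and gut, was at -1.44, and *SLC7A2*, another carrier of arginine and lysine, at -1.18. *SLC38A7*, a lysosomal glutamine carrier, was at 1.16. The cystine carrier *SLC7A11*, an ATF4 target that A549 cells also express through NRF2, was at -0.15 after *miR-139-3p* and -0.21 after *miR-139-5p*.

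Of the cytosolic tRNA synthetases outside the members, 14 of 15 had a value. With *miR-139-3p*, 7 were below -0.5 (50%, against 30.3% of all genes) and 0 above 0.5, with a median of -0.52, and *YARS1*, for tyrosine tRNA, was lowest at -1.36. With *miR-139-5p*, 0 were below -0.5 and the median was -0.15. The 17 synthetases of mitochondria are other genes with a similar task. With *miR-139-3p*, 7 of them were below -0.5 (41.2%) and 0 above 0.5, with a median of -0.40. No test was possible for any of these counts.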
